A study of Mus musculus with 15 samples.

Results

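Loss of Cngb3 was examined in mouse retinas that already lacked Nrl, by setting 5 arrays of Cngb3/Nrl double knockout mice (CNGB3-/-/Nrl-/-) against 5 arrays of Nrl knockout mice (Nrl-/-), 10 of the 15 arrays of the series. Each array held RNA from the 2 retinas of 1 mouse at postnatal day 30, on a C57bl/6 background, hybridised to an Illumina mouse beadchip. The remaining 5 arrays were of Cnga3/Nrl double knockout mice (CNGA3-/-/Nrl-/-), which serve as a second mutant for comparison. They also entered the normalisation, the detection filter and limma's estimate of the spread of each probe. All groups carried the Nrl deletion, so every change described below is one of a retina whose photoreceptors are cone-like. The sample titles alone put arrays into these groups, and no array of a group was left out.

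Cngb3 encodes the modulatory B subunit of the cyclic nucleotide-gated channel of cones, which assembles with the pore-forming subunit encoded by Cnga3. In the dark, cGMP holds this channel open and sodium and calcium flow into the outer segment. Light activates cone opsin, transducin and phosphodiesterase 6, cGMP falls and the channel closes. Calcium then drops, and guanylate cyclase activating proteins switch on the cyclase that restores cGMP. Loss of either subunit is a known cause of achromatopsia, and in mice cone channel loss is followed by slow cone degeneration. Nrl is the leucine zipper factor needed for rod identity, and mouse retinas without it are rich in cone-like cells.

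Of 25697 probes, 13077 with a detection p-value under 0.01 on at least 5 of the 15 arrays were tested, covering 9097 genes, and 744 tested probes had no gene symbol. Values are background-corrected, quantile-normalised log2 intensities, and a change is the double knockout mean minus the Nrl knockout mean on that scale with its standard error (SE) from limma. A probe was called where limma's adjusted p was under 0.05. Called were 351 probes (2.68%), 188 higher (1.44%) and 163 lower (1.25%) in the double knockout, while 2673 probes had an unadjusted p under 0.05. The called probes covered 169 genes with a rise and 143 with a fall. The median change over all tested probes was -0.0025. Among the called probes, 45 rose and 26 fell at least 2-fold, and the median size of a called change was 0.788. The 5 and 5 values did not overlap for 875 probes (6.69%), and 270 of these were among the called.

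The arrays of the groups differed in evenness. Correlations between arrays were 0.979 to 0.986 within the double knockout and 0.926 to 0.978 within the Nrl knockout. Nrl knockout replicate 3 had 10302 detected probes, against 11646 to 12629 on the double knockout arrays and 11926 to 12510 on the other Nrl knockout arrays. Lens transcripts separated the same group: the crystallin gene Cryaa read 13.22 to 14.20 on the double knockout arrays, and 4.28 and 6.60 in Nrl knockout replicates 1 and 3 against 12.81 to 13.56 in replicates 2, 4 and 5. Over 27 measured lens, cornea and iris genes the median change was 2.18, and 0.57 without Nrl knockout replicates 1 and 3, with 0 called by limma in either setting and 18 at an unadjusted p under 0.05. Without these 2 arrays 849 probes were called, 555 higher and 294 lower, and 309 of the original 351 were still called the same way. Counts of the gene lists without these arrays are given below beside those they differ from. Retinal markers were present: cone transducin (Gnat2) averaged 13.30 in the double knockout and 13.16 in the Nrl knockout, M opsin (Opn1mw) 14.04 and 14.27, and the Nrl probe was detected on 0 of 5 arrays in either group.

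The targeted gene checks the labels. The Cngb3 probe read 7.03, 6.96, 6.68, 7.24 and 6.84 in double knockout replicates 1 to 5, and 8.58, 9.66, 7.32, 10.05 and 9.52 in Nrl knockout replicates 1 to 5. All double knockout values lay below all Nrl knockout values, although replicate 3 of the Nrl knockout came close. Cngb3 fell 4.22-fold (change -2.08, SE 0.387, adjusted p = 0.0108), and the change was -2.80 without Nrl knockout replicates 1 and 3. The residual signal was detected on all 5 double knockout arrays. The sources used here do not say whether the probe lies in the deleted part of the gene. The probes of Cnga3, the partner subunit, averaged 7.39 and 8.54 in the double knockout and 7.71 and 8.58 in the Nrl knockout (adjusted p = 0.251 and 0.943).

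Genes beside Cngb3 share its targeted chromosome. Measured genes were taken in order along chromosome 4, up to 50 on each side of Cngb3, and 1 side held fewer. Of these 80 genes, 1 rose and 1 fell (2.5%), against 2.50% of the 9016 other genes. Places from Cngb3 count measured genes only. Decr1, a mitochondrial enzyme of unsaturated fatty acid oxidation and the nearest measured gene on one side, read 6.44 to 6.72 in the double knockout and 6.93 to 7.50 in the Nrl knockout. It fell by 0.69 (SE 0.13, adjusted p = 0.0108), with no overlap between groups. Necab1, a neuronal calcium-binding protein gene 3 places from Cngb3, was noticed only after its values were seen. Its dimmer probe read 5.43, 5.60, 5.85, 5.27 and 5.24 in the double knockout and 6.83, 7.40, 5.72, 8.60 and 7.23 in the Nrl knockout, while its brighter probe differed by -0.037. The dimmer probe fell by 1.68 (adjusted p = 0.0346), a call that ended in 8 of 10 fits with 1 array left out (up to 0.0873 without double knockout replicate 4), and Nrl knockout replicate 3 was again the low array of its group, as for Cngb3.

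The largest fall was that of Guca1b, a calcium-sensitive activator of photoreceptor guanylate cyclase. It read 6.24, 5.92, 6.23, 6.14 and 5.76 in the double knockout, and 8.68, 8.92, 9.95, 8.02 and 9.37 in the Nrl knockout. The groups were more than 1 log2 unit apart at their closest arrays. The fall was 7.63-fold (change -2.93, SE 0.269, adjusted p = 1.34e-05). Arr3, the cone arrestin that quenches activated cone opsin, has 2 probes, both called. The brighter read 11.29, 11.34, 11.27, 11.21 and 11.61 in the double knockout and 12.87, 13.26, 13.24, 12.91 and 13.62 in the Nrl knockout. It fell 3.58-fold (change -1.84, SE 0.156, adjusted p = 5.67e-06), and the other probe fell 3.15-fold (change -1.65, SE 0.126, adjusted p = 3.98e-06). Pde6b, the beta subunit of rod phosphodiesterase 6, had the tightest values of these genes, with 8.68, 8.75, 8.62, 8.63 and 8.70 in the double knockout and 10.18, 10.29, 10.11, 10.13 and 10.40 in the Nrl knockout. It fell 2.92-fold (change -1.55, SE 0.151, adjusted p = 2.66e-05). None of the 3 genes lost its call in any of the 10 fits with 1 array left out.

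Among the rises, Ednrb, the endothelin type B receptor, stood first. Its brighter probe read 11.51, 11.58, 11.72, 11.70 and 11.11 in the double knockout, and 9.46, 8.95, 8.32, 9.47 and 8.89 in the Nrl knockout. Even the lowest double knockout array lay above the highest Nrl knockout array by more than 1 log2 unit. Ednrb rose 5.66-fold on this probe (change 2.50, SE 0.201, adjusted p = 4.42e-06) and 5.59-fold on the other (2.48, SE 0.252, adjusted p = 4.11e-05). Drd4, the dopamine D4 receptor, which lowers cAMP in photoreceptors, read 11.95, 11.98, 12.06, 11.82 and 12.03 in the double knockout and 9.83, 9.42, 10.26, 9.75 and 10.32 in the Nrl knockout. It rose 4.15-fold (change 2.05, SE 0.175, adjusted p = 5.67e-06). Slc24a1, the sodium, calcium and potassium exchanger of rod outer segments, read 7.86, 7.96, 8.31, 8.50 and 8.07 in the double knockout and 6.20, 6.08, 6.29, 6.51 and 6.45 in the Nrl knockout. It rose 3.56-fold (change 1.83, SE 0.188, adjusted p = 4.11e-05). Esrrb, an orphan nuclear receptor expressed in rods, read 9.38 to 9.97 in the double knockout and 8.16 to 8.66 in the Nrl knockout and rose 2.41-fold (change 1.27, SE 0.147, adjusted p = 0.000134). These 4 genes kept their calls in all 10 fits with 1 array left out.

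**Figure D1:**
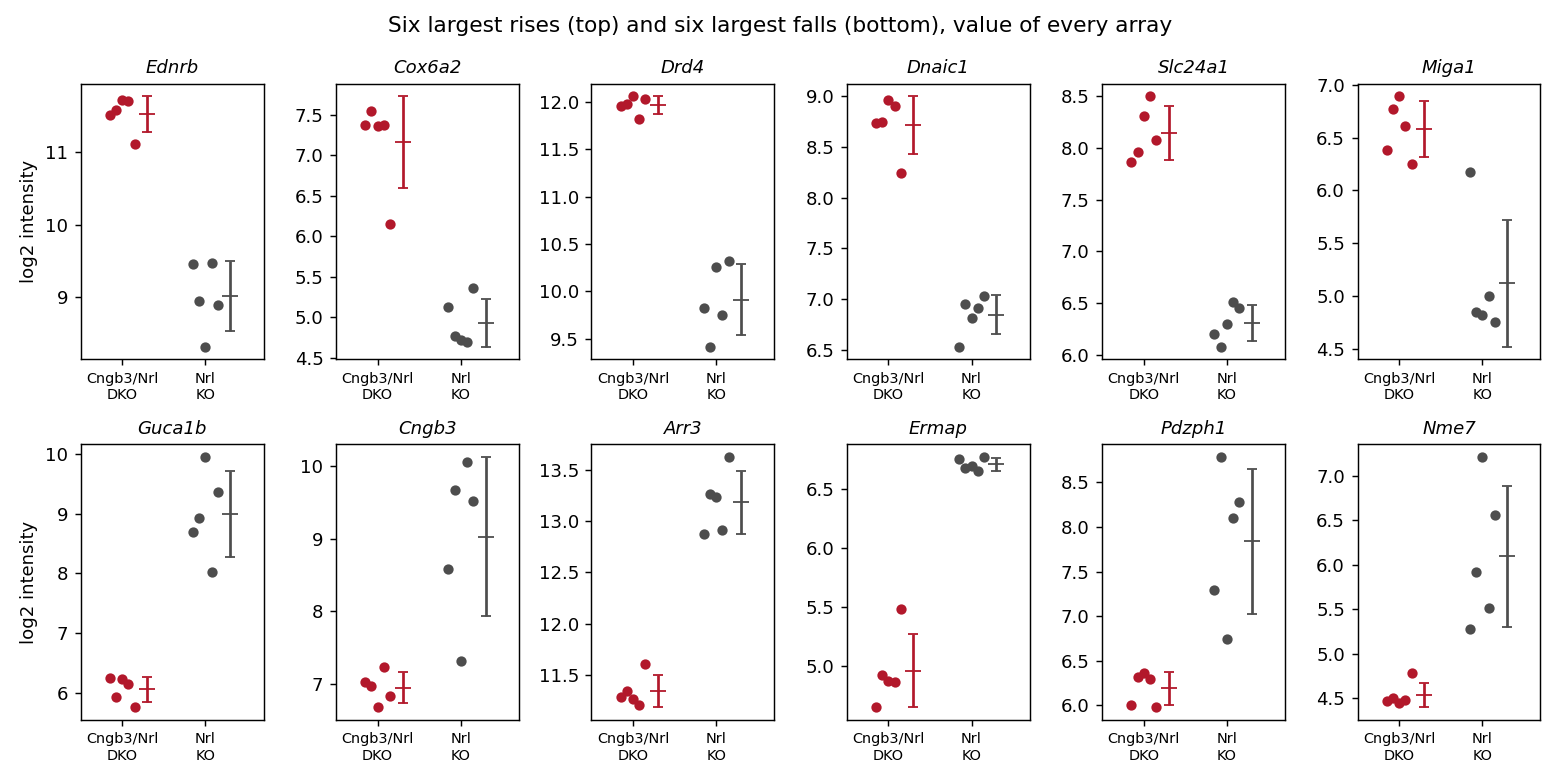
Log2 intensity on every array for the 6 genes with the largest rises (top row) and the 6 with the largest falls (bottom row) among called probes without overlap between groups, Cngb3/Nrl double knockout (DKO, red) left of Nrl knockout (KO, grey), with mean and SD (n = 5 each) beside the points. Miga1, Cngb3 and Pdzph1 have 1 Nrl knockout array near the double knockout values.

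Promoters are shown for the largest rises and falls found in the RefSeq promoter table, to let the sequences before genes that moved most be compared. Each runs 5′ to 3′ on the gene's strand, from 250 bases before to 50 bases after its annotated start in GRCm38.p6, for Ednrb (chr14:103843652-103843951, minus strand), Drd4 (chr7:141291768-141292067, plus strand), Arr3 (chrX:100605247-100605546, plus strand) and Ermap (chr4:119189946-119190245, minus strand). Capitals mark a match to the CRX/OTX motif TAATCC or its reverse complement GGATTA. The ESRRB motif AAGGTCA was searched on both strands too (its reverse complement reads TGACCTT), and so was the AP-1 motif TGACTCA (read from the other strand, TGAGTCA). The motifs do not overlap in the sequences shown, which hold 1 match in all.
Ednrb: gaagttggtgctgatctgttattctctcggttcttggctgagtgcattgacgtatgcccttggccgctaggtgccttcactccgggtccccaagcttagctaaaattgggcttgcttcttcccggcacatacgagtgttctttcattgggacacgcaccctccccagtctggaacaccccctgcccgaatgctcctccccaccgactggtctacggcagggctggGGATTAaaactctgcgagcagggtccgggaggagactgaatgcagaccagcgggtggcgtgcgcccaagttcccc
Drd4: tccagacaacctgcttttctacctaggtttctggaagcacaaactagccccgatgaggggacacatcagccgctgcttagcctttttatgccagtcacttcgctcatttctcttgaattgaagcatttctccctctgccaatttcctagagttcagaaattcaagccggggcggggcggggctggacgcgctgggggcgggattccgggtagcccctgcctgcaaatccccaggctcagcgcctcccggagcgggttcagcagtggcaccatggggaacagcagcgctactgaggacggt
Arr3: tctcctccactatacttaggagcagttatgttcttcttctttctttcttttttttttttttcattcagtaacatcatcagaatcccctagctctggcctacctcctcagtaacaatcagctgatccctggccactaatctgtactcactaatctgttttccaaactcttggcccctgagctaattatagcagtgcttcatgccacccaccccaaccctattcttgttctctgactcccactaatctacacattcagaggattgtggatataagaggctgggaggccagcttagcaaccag
Ermap: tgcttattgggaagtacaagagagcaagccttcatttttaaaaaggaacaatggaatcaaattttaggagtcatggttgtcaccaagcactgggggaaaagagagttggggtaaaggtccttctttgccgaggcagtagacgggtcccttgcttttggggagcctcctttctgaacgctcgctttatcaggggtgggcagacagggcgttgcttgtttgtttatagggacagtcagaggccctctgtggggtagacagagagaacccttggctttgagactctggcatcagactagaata
The 1 match lies in the Ednrb window. A CRX/OTX match was present in 7.16% of the 27025 promoters of the table, in 5.96% of the 7422 promoters of measured genes, in 4.65% of the 86 promoters of genes that rose and in 10.8% of the 93 of genes that fell. For ESRRB the shares were 3.49% of genes that rose, 5.38% of genes that fell and 3.07% of measured genes, and for AP-1 they were 4.65%, 3.23% and 3.29%. These are descriptions of 300 bases each and were not tested.

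For gene lists, each gene was counted once by its brightest probe. On that basis 228 of 9097 genes were called (2.51%), 112 higher (1.23%) and 116 lower (1.28%), with a median change of -0.0135. These shares stand beside the count of each list. Lists and members were chosen with earlier results of these data known, so list shares above them are descriptions. Without Nrl knockout replicates 1 and 3 the shares were 3.54% higher and 2.33% lower.

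Among 21 measured cone photoreceptor genes, 1 rose and 3 fell, with a median of -0.17, and without Nrl knockout replicates 1 and 3 the counts were 0 and 3. Of these 21, 10 had an unadjusted p under 0.05, and the groups did not overlap for 2 higher and 4 lower. Over all 13077 tested probes, 2673 had an unadjusted p under 0.05 and 6.69% did not overlap. Besides Cngb3, the target itself, and Arr3, Guca1a fell, which encodes another guanylate cyclase activating protein. Guca1a read 13.34 to 13.84 in the double knockout and 13.75 to 14.46 in the Nrl knockout, with overlap, and its fall of 0.60 (adjusted p = 0.0364) was lost in 6 of 10 fits with 1 array left out (up to 0.108 without double knockout replicate 4). Recoverin (Rcvrn), a calcium sensor that restrains opsin kinase, rose by 0.51 (adjusted p = 0.047), and that call ended in all 10 such fits (up to 0.132 without double knockout replicate 4). The core of the cone cascade did not pass the test. M opsin (Opn1mw) differed by -0.22, Gnat2 by 0.14, and the cone phosphodiesterase subunits Pde6c and Pde6h by -0.039 and -0.18. S opsin (Opn1sw) read 10.42 to 10.77 in the double knockout and 9.91 to 10.37 in the Nrl knockout on its brighter probe without overlap, and missed the threshold (0.45, adjusted p = 0.172), while its dimmer probe averaged 7.71 and 7.90. The calls of this list thus fell on the target, arrestin, a cyclase activator and a calcium sensor, and on none of its opsins, transducin or phosphodiesterase subunits.

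Rod photoreceptor genes moved in both directions. Of 16 measured, 3 were called higher (Esrrb, Reep6 and Slc24a1) and 2 lower (Pde6b and Guca1b), with a median of 0.26. Of these 16, 10 had an unadjusted p under 0.05, and the groups did not overlap for 6 higher and 2 lower. Reep6, an endoplasmic reticulum protein of rods named here after its values were seen, read 9.44 to 9.75 in the double knockout and 8.84 to 9.21 in the Nrl knockout. It rose by 0.61 (adjusted p = 0.0239), lost in 5 of 10 fits (up to 0.0656 without Nrl knockout replicate 2). The rod channel genes did not pass, with Cngb1 at 0.41 (adjusted p = 0.153) and Cnga1 at -0.12 (0.824). Sag, the rod arrestin, differed by -0.28 (0.263). Among 16 photoreceptor transcription factors, Esrrb rose and Rax, a homeobox gene of retinal progenitors and photoreceptors, fell by 0.76 (adjusted p = 0.0376, lost in 7 of 10 fits, up to 0.111 without double knockout replicate 4). Crx (-0.17) and Otx2 (-0.027), which drive photoreceptor genes, did not pass. The 16 factors gave 3 rises and 0 falls without Nrl knockout replicates 1 and 3.

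Structural genes of the outer segment were called at about the share of all genes. Of 40 measured outer segment and photoreceptor cilium genes, 0 rose and 1 fell, and 1 rose and 1 fell without Nrl knockout replicates 1 and 3. The fall was that of Fscn2, a retinal actin-bundling protein of disc formation, which read 6.49 to 7.60 in the double knockout and 7.49 to 8.60 in the Nrl knockout and fell by 1.04 (adjusted p = 0.0219, lost in 4 of 10 fits, up to 0.0667 without double knockout replicate 1). Dimmer probes of 2 further members fell, Pde6d, which carries prenylated proteins to the outer segment (-0.78, adjusted p = 0.0183), and Tulp1, a photoreceptor trafficking protein (-0.85, adjusted p = 0.0244). The brightest Tulp1 probe averaged 13.13 across the arrays, against 8.32 for the probe that was called. The other 3 Pde6d probes had changes of -0.36 to -0.22 and the other 2 Tulp1 probes of -0.30 to -0.23, with 0 of the 5 called. Calls of Pde6d and Tulp1 were lost in 1 and 3 of 10 fits (up to 0.0575 without double knockout replicate 2 and 0.0694 without replicate 1).

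Dnaic1, an intermediate chain of axonemal outer dynein arms, belongs to motile cilia, which photoreceptors do not have. Its brighter probe read 10.46, 10.38, 10.53, 10.33 and 9.69 in the double knockout and 8.10, 8.52, 8.49, 8.24 and 8.74 in the Nrl knockout. The groups stood apart on both probes, and each rose by 1.86 (SE 0.213, adjusted p = 0.000121, and SE 0.227, adjusted p = 0.000254). Of 21 measured axonemal and motile cilium genes, Dnaic1 was the 1 that rose and Cfap69 the 1 that fell (-0.71, adjusted p = 0.0242, lost in 4 of 10 fits, up to 0.0697 without double knockout replicate 4), and without Nrl knockout replicates 1 and 3 the list had 2 rises and 1 fall. Dnaic1 also lies 47 places from Cngb3 on chromosome 4 and is the rise counted among its neighbours.

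Calcium handling genes moved in both directions, 2 higher and 2 lower of 37 measured. Atp2b1, a plasma membrane calcium pump, read 8.40 to 8.82 in the double knockout and 6.92 to 8.21 in the Nrl knockout and rose by 1.10 (adjusted p = 0.0121). Slc8a3, a sodium and calcium exchanger, rose on both probes, by 1.02 (adjusted p = 0.0193) and 0.89 (adjusted p = 0.0244), with values of 6.98 to 7.18 in the double knockout and 5.48 to 6.44 in the Nrl knockout on the first. Both proteins export calcium, as does the product of Slc24a1. Hpcal1, a neuronal calcium sensor of the visinin family, fell by 0.82 (adjusted p = 0.0124), and Orai1, the store-operated calcium channel, by 0.62 (adjusted p = 0.0414). Calls of Atp2b1 and Hpcal1 remained in all 10 fits with 1 array left out, whereas Slc8a3 lost its calls in 3 and 4 (up to 0.0535 without Nrl knockout replicate 2 and 0.0696 without double knockout replicate 4) and Orai1 in 8 (up to 0.119 without double knockout replicate 4). The list had 3 rises and 2 falls without Nrl knockout replicates 1 and 3.

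Genes of cyclic nucleotide signalling were next. Of the 26 measured, 2 were called higher and 0 lower. Pde8a, a cAMP phosphodiesterase, read 9.39 to 9.64 in the double knockout and 8.63 to 8.88 in the Nrl knockout and rose by 0.79 (adjusted p = 0.0108). Gkap1, which anchors cGMP-dependent protein kinase, rose by 1.17 on 1 probe (adjusted p = 0.013), while its other probe differed by -0.15. Its called probe read 9.97 in Nrl knockout replicate 1 and 8.44 to 9.29 in the other 4, so that 1 array lay next to the double knockout values of 10.05 to 10.38. Of 12 dopamine, melatonin and adenylate cyclase genes, Drd4 was the 1 called, 2 rose without Nrl knockout replicates 1 and 3, and Adcy1, an adenylate cyclase of photoreceptors, differed by -0.55 (adjusted p = 0.178). Of 22 potassium, HCN and chloride channel genes, Kcnn1, a calcium-activated potassium channel, was the 1 called, at -0.81 (adjusted p = 0.026, lost in 5 of 10 fits, up to 0.0766 without double knockout replicate 4).

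Ednrb was alone among 5 measured endothelin genes in passing. Its ligand gene Edn2, known to be produced by stressed photoreceptors in mice, differed by 0.42 (SE 0.372, adjusted p = 0.546), and Edn1 by 0.091. The 27 genes of retinal injury and gliosis, which include Ednrb and Edn2, had a median of 0.23 with 1 called higher and 0 lower, and 3 higher without Nrl knockout replicates 1 and 3. Gfap, the intermediate filament raised in reactive glia, differed by 0.21 (adjusted p = 0.709), and Hmox1 by 1.12 (adjusted p = 0.128). A dimmer probe of Vegfa fell by 0.62 (adjusted p = 0.0165, lost in 1 of 10 fits, up to 0.0577 without double knockout replicate 1), with its brightest probe at -0.13.

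Of 45 measured genes of endoplasmic reticulum stress and the integrated stress response, 4 rose (8.89%) and 0 fell, with a median of 0.16. Chac1, a glutathione-degrading enzyme induced by the transcription factor Atf4, read 9.73, 9.49, 9.64, 9.71 and 9.59 in the double knockout and 9.15, 7.70, 8.10, 8.61 and 8.13 in the Nrl knockout. Nrl knockout replicate 1 was its highest Nrl knockout array, still below every double knockout array. Chac1 rose by 1.30 (SE 0.224, adjusted p = 0.00713). Slc7a3, a cationic amino acid transporter, rose by 0.94 (SE 0.137, adjusted p = 0.00141), with 8.55 to 9.20 in the double knockout and 7.75 to 8.08 in the Nrl knockout. Slc7a5, the large neutral amino acid transporter, rose by 0.64 (adjusted p = 0.0121), and Phgdh, the entry enzyme of serine synthesis, by 1.03 (adjusted p = 0.044). The 4 genes handle amino acids or glutathione, and the chaperone and folding members of the list were not among them. Hspa5, the main chaperone of the endoplasmic reticulum, differed by -0.20, Ddit3 by -0.16 and Atf4 itself by 0.32 (adjusted p = 0.164). A dimmer probe of Asns, asparagine synthetase, rose by 0.76 (adjusted p = 0.0244, lost in 5 of 10 fits, up to 0.0665 without double knockout replicate 2), with both other probes at 0.35 and 0.49. Phgdh lost its call in 7 of 10 fits (up to 0.118 without double knockout replicate 4), and the other 3 in none. The list had 3 rises and 0 falls without Nrl knockout replicates 1 and 3.

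Among energy genes, isoforms of cytochrome c oxidase subunits were called. Of 27 cytochrome c oxidase genes, 1 rose and 1 fell, with a median of -0.21. Cox6a2, the isoform of subunit VIa best known from heart and skeletal muscle, read 7.37, 7.55, 7.36, 7.37 and 6.16 in the double knockout and 5.13, 4.77, 4.72, 4.69 and 5.36 in the Nrl knockout, where it was detected on 0 of 5 arrays. It was at least 3.21-fold higher (adjusted p = 5.36e-05), where the bound sets the mean against each Nrl knockout array's lowest detected signal. Cox6b2, an isoform best known from testis, fell by 0.71 (adjusted p = 0.0435, lost in 9 of 10 fits, up to 0.121 without double knockout replicate 4). The counts were 2 and 0 without Nrl knockout replicates 1 and 3. The 58 measured genes of complexes I, II, III and V had a median of -0.086, and limma called 0, with 11 at an unadjusted p under 0.05. Among 26 glycolysis and glucose entry genes, Slc2a1, the glucose transporter of endothelium and photoreceptors, rose by 0.62 (adjusted p = 0.0477, lost in 8 of 10 fits, up to 0.132 without double knockout replicate 4), and Pygm, the muscle glycogen phosphorylase, fell by 0.98 (adjusted p = 0.0169, and 0.0525 without double knockout replicate 1).

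Protective, death and immune pathways held 0 to 2 calls in each list. Of 44 antioxidant and redox genes, 0 rose and 2 fell (4.55%, against 1.28% of all genes). Nxnl2, a thioredoxin-like gene of photoreceptors related to the rod-derived cone viability factor, read 9.13 to 9.74 in the double knockout and 10.32 to 10.74 in the Nrl knockout and fell by 1.05 (SE 0.142, adjusted p = 0.000745). Txnip, an inhibitor of thioredoxin, fell by 0.63 (adjusted p = 0.0451, lost in 8 of 10 fits, up to 0.117 without double knockout replicate 4). The list had 1 fall without Nrl knockout replicates 1 and 3, and limma called 0 rises in either setting. Limma called 0 of 35 heat shock and chaperone genes by their brightest probes (6 at an unadjusted p), with Hspa1a at 0.55 (adjusted p = 0.0523) and Hspa2 at 0.51 (0.0705), and 1 rose and 1 fell without Nrl knockout replicates 1 and 3. A dimmer probe of Hspd1, the mitochondrial chaperonin, rose by 0.96 (adjusted p = 0.0116), with its brighter probe at 0.15. Of 34 cell death genes, Capn2, a calcium-activated protease, rose by 0.61 (adjusted p = 0.0254, lost in 6 of 10 fits, up to 0.0766 without double knockout replicate 4), and 2 rose without Nrl knockout replicates 1 and 3. Of 31 interferon, antigen presentation and complement genes, Irf3 fell by 0.53 (adjusted p = 0.0169, lost in 3 of 10 fits, up to 0.0563 without double knockout replicate 1), and 1 rose and 1 fell without Nrl knockout replicates 1 and 3. Jun, an immediate early transcription factor, fell by 0.83 (adjusted p = 0.00979) as the 1 gene called of 18 in its list, which also held 1 rise without Nrl knockout replicates 1 and 3.

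**Figure D2:**
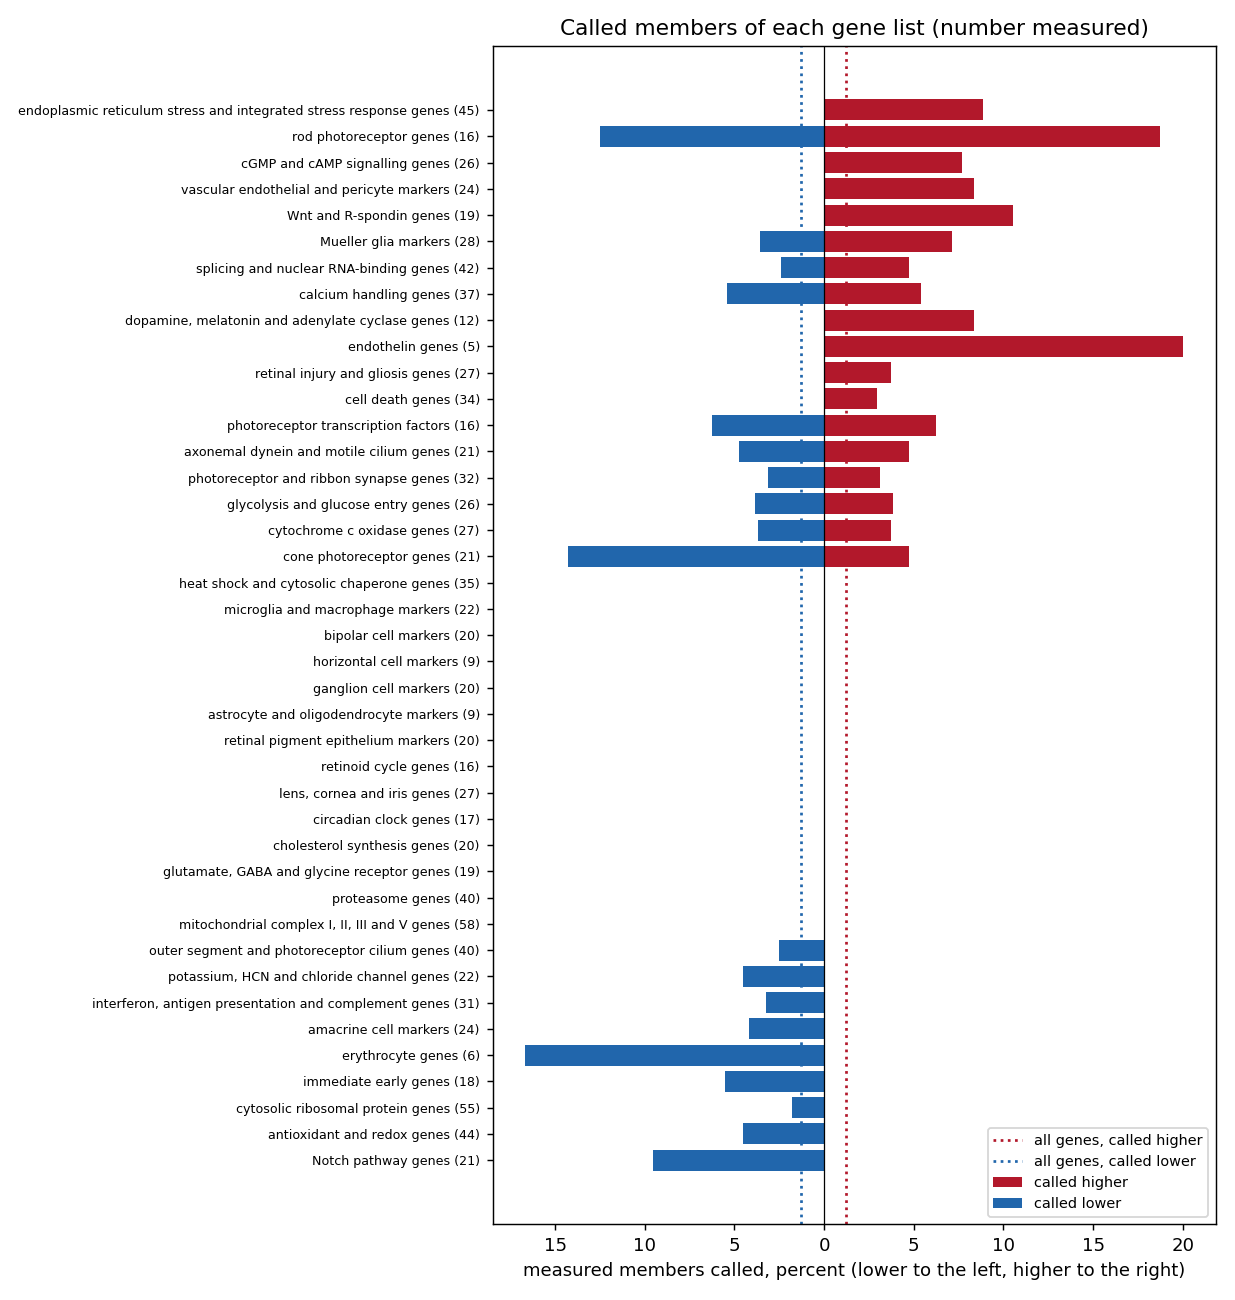
Percent of the measured members of each of the 41 gene lists called higher (red, to the right) or lower (blue, to the left) in the Cngb3/Nrl double knockout than in the Nrl knockout, with the number measured in parentheses and dotted lines at the shares of all genes (1.23% and 1.28%). Lists with 5 or 6 measured members reach high percentages with 1 gene.

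Markers of other retinal cells give the setting for these changes. In whole retina, fewer cells of a type and less RNA per cell cannot be told apart. Of 28 Mueller glia markers, 2 rose and 1 fell. Aqp4, the glial water channel, read 9.64 to 10.24 in the double knockout and 8.54 to 9.74 in the Nrl knockout and rose by 0.98 (adjusted p = 0.0186, lost in 4 of 10 fits, up to 0.0575 without double knockout replicate 2). Transferrin (Trf) rose by 0.79 (adjusted p = 0.0373, lost in 7 of 10 fits, up to 0.101 without double knockout replicate 3). The summed linear intensity of the Mueller list was 59971 to 62972 in the double knockout and 48142 to 59774 in the Nrl knockout, without overlap by a narrow margin. Rlbp1, a defining marker, averaged 11.46 in the double knockout and 11.21 in the Nrl knockout. The part of glial content in the rises of Ednrb and Aqp4 was not tested.

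Hes5 fell within the same list. A basic helix-loop-helix repressor that Notch switches on in glia and progenitors, it read 6.18, 6.47, 6.44, 6.63 and 6.46 in the double knockout and 7.95, 6.91, 7.68, 7.48 and 7.43 in the Nrl knockout on one probe. Both probes fell, by 1.05 (SE 0.173, adjusted p = 0.00488) and 0.84 (SE 0.151, adjusted p = 0.00979), and both calls remained in all 10 fits with 1 array left out. Of 21 Notch pathway genes, 0 rose and 2 fell, the other being the Notch feedback regulator Nrarp (-0.63, adjusted p = 0.0246, lost in 4 of 10 fits, up to 0.0703 without double knockout replicate 1). Hes1, another Notch target, differed by -0.11, and the receptor Notch1 by 0.19. Of 19 Wnt and R-spondin genes, 2 rose and 0 fell. Lgr5, the R-spondin receptor, rose by 1.26 (adjusted p = 0.0325), lost in 8 of 10 fits (up to 0.0804 without double knockout replicate 1), and Sfrp1, a secreted Wnt antagonist detected on 2 of 5 Nrl knockout arrays, by 1.24 (adjusted p = 0.0254), lost in 4 (up to 0.0699 without Nrl knockout replicate 2). Sfrp1 was also not called without Nrl knockout replicates 1 and 3 (0.99, adjusted p = 0.0677).

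Neuronal markers were examined by type. Of 20 bipolar cell markers limma called 0, with 6 at an unadjusted p under 0.05 and a median change of -0.14. Lhx4 differed by 0.85 (adjusted p = 0.0541) and Pcp2 by -0.48 (adjusted p = 0.106). Without Nrl knockout replicates 1 and 3 limma called 1 marker higher and 1 lower. The summed intensity of the bipolar list was 28650 to 30897 in the double knockout and 31724 to 35637 in the Nrl knockout, without overlap. Of 24 amacrine cell markers, the neuropeptide gene Npy fell by 0.54 (adjusted p = 0.0408, lost in 9 of 10 fits, up to 0.106 without double knockout replicate 3), and without Nrl knockout replicates 1 and 3 the list had 2 rises and 1 fall. Of all 24, 9 had an unadjusted p under 0.05, and the groups did not overlap for 5 higher and for 1 lower, Npy itself. Over all 13077 tested probes, 2673 had an unadjusted p under 0.05 and 875 (6.69%) did not overlap. Both probes of Gad1, a GABA-synthesising enzyme, were among the uncalled, at 0.44 (adjusted p = 0.16) and 0.61 (adjusted p = 0.0958), with no overlap between groups. The amacrine sum was 35498 to 37294 in the double knockout and 28316 to 36768 in the Nrl knockout, and the horizontal cell sum 5283 to 5847 and 3826 to 5503, both with overlap. Limma called 0 of 9 horizontal cell markers (3 at an unadjusted p) and 0 of 20 ganglion cell markers (4 at an unadjusted p). Thy1 differed by -0.45 and Pou4f1 by 0.37, and without Nrl knockout replicates 1 and 3 the horizontal list had 1 rise and 1 fall. Of 32 photoreceptor and ribbon synapse genes, Rims1, an active zone scaffold, rose by 0.84 (adjusted p = 0.0344, lost in 7 of 10 fits, up to 0.0921 without double knockout replicate 2), and the glutamate transporter Slc1a2 fell by 0.58 (adjusted p = 0.0314, lost in 5 of 10 fits, up to 0.0862 without double knockout replicate 2). The other Slc1a2 probes differed by -0.24 and 0.15, neither called. The synapse list had 6 rises and 1 fall without Nrl knockout replicates 1 and 3, so its count depends on those arrays. Of 19 glutamate, GABA and glycine receptor genes limma called 0 (2 at an unadjusted p).

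Vascular and immune markers were also followed. Of 24 vascular markers, Flt1, a receptor for vascular endothelial growth factor, rose by 0.63 (adjusted p = 0.0372, lost in 8 of 10 fits, up to 0.0978 without Nrl knockout replicate 2) and Slc2a1 was called as given above (lost in 8 of 10 fits). The summed intensity of the list was 15170 to 21334 in the double knockout and 10429 to 18164 in the Nrl knockout, with overlap. Of 22 microglia and macrophage markers limma called 0 (3 at an unadjusted p), and the list sum ran from 3055 to 3486 in the double knockout and from 2126 to 10211 in the Nrl knockout, where replicate 1 held the highest value. Fcer1g, an immune receptor adaptor of microglia, read 7.21 to 7.58 in the double knockout and 9.10, 7.31, 7.73, 8.47 and 8.33 in Nrl knockout replicates 1 to 5 (-0.86, adjusted p = 0.155). Pigment epithelium markers summed to 21806 to 34701 in the double knockout and 17650 to 29724 in the Nrl knockout, each lowest in replicate 5. Limma called 0 of these 20 markers (4 at an unadjusted p), with Ttr at 0.82 (adjusted p = 0.128). Limma also called 0 of 16 retinoid cycle genes (6 at an unadjusted p) and 0 of 9 astrocyte and oligodendrocyte markers (3 at an unadjusted p). Without Nrl knockout replicates 1 and 3 the counts of these lists stayed at 0, except for 1 rise among the astrocyte and oligodendrocyte markers.

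Ribosomal, degradation and RNA-processing genes were counted too. Of 55 cytosolic ribosomal protein genes 1 fell, Rpl29 (-0.68, adjusted p = 0.0328, lost in 8 of 10 fits, up to 0.0891 without Nrl knockout replicate 5), with its other probe at -0.18. Limma called 0 of 40 proteasome genes, 0 of 20 cholesterol synthesis genes and 0 of 17 circadian clock genes (5, 5 and 4 at an unadjusted p), and without Nrl knockout replicates 1 and 3 called 2, 0 and 1, all higher. Dimmer probes of the cholesterol genes Sqle and Insig1 rose by 0.90 (adjusted p = 0.0206) and 1.02 (adjusted p = 0.0315), with the other Sqle probe at 0.21 and the other Insig1 probes at -0.24 and 0.60, and were lost in 5 and 7 of 10 fits (up to 0.0636 without double knockout replicate 1 and 0.0836 without Nrl knockout replicate 5). Of 42 splicing and nuclear RNA-binding genes, Hnrnpf rose by 0.63 (adjusted p = 0.0269) and Ddx5 by 0.98 (adjusted p = 0.0385), and Luc7l fell by 0.57 (adjusted p = 0.0328), shares of 4.76% higher and 2.38% lower, and the list had 3 rises and 1 fall without Nrl knockout replicates 1 and 3. The other Ddx5 probe differed by -0.0062. Those calls were lost in 6, 8 and 9 of 10 fits (up to 0.0763 and 0.098, without double knockout replicate 2 and Nrl knockout replicate 2, and 0.094 without double knockout replicate 4).

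Several of the largest changes lay outside the lists or on a probe that the lists did not count. Miga1, a mitochondrial outer membrane protein of fusion, read 6.38, 6.77, 6.89, 6.61 and 6.25 in the double knockout and 6.17, 4.85, 4.82, 5.0 and 4.75 in the Nrl knockout. Nrl knockout replicate 1 nearly met the double knockout values and was the 1 Nrl knockout array of 5 on which Miga1 was detected. The measured rise of 2.75-fold (adjusted p = 0.0108) is thus mostly against background. Trps1, a GATA-type transcriptional repressor, rose 2.53-fold (adjusted p = 0.00385), with 7.04 to 7.59 in the double knockout and 5.47 to 6.69 in the Nrl knockout, where 4 of 5 arrays detected it. Pcdh9, a protocadherin, was detected on 5 of 5 double knockout arrays and 0 of 5 Nrl knockout arrays and was at least 1.45-fold higher (adjusted p = 0.00122). The type IV collagen chain Col4a4, detected on 2 of 5 Nrl knockout arrays, rose 2.30-fold (adjusted p = 0.0165, and 0.051 without double knockout replicate 4), and the lipoprotein-associated esterase Pon1 rose 2.33-fold (adjusted p = 0.0407, lost in 7 of 10 fits, up to 0.109 without Nrl knockout replicate 5). Dkk3, a secreted glycoprotein of Mueller glia and a member of the Mueller list, rose 2.24-fold on a dim probe (adjusted p = 0.0457, lost in 8 of 10 fits, up to 0.115 without double knockout replicate 2). Its other 2 probes, averaging 13.56 and 13.40 in the double knockout against 13.49 and 13.26 in the Nrl knockout, differed by 0.067 and 0.14, so the rise rests on the dim probe.

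Ermap, an erythroblast membrane protein, had uniform Nrl knockout values, at 6.75, 6.67, 6.69, 6.65 and 6.77, against 4.66, 4.92, 4.88, 4.87 and 5.48 in the double knockout. It was detected on 1 of 5 double knockout arrays and 5 of 5 Nrl knockout arrays, so its measured fall of 3.35-fold (change -1.74, SE 0.182, adjusted p = 4.84e-05) is mostly against background. The list of 6 measured erythrocyte genes had a sum of 1684 to 9549 in the double knockout and 3260 to 11307 in the Nrl knockout. The part of residual blood in it was not tested. Pdzph1, a gene for a protein with PDZ and PH domains, fell 3.14-fold (adjusted p = 0.0085), and Riiad1, which carries a regulatory subunit type dimerisation domain, 2.58-fold (adjusted p = 0.000102). Kash5, a nuclear envelope protein of meiosis detected on 2 of 5 double knockout arrays, fell 2.59-fold (adjusted p = 0.00389). Both undetected on the double knockout arrays (0 of 5), the histone H2A variant H2al1e was lower by at least 2.14-fold (adjusted p = 5.27e-05) and Tnfsfm13, a joined locus that shares sequence with its neighbours Tnfsf12 and Tnfsf13, by at least 1.38-fold (adjusted p = 0.0108). Without the Nrl knockout arrays neither would have passed the detection filter, as H2al1e was detected on 1 and Tnfsfm13 on 3 of 5 Cnga3/Nrl arrays. The immune genes Ccl9, a chemokine, and H2-Q7, a non-classical class I molecule with near-identical relatives whose signals the probe may share, fell 2.19-fold (adjusted p = 0.0154, and 0.0525 without double knockout replicate 1) and 2.10-fold (adjusted p = 0.0307, lost in 5 of 10 fits, up to 0.0888 without double knockout replicate 4).

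**Figure D3:**
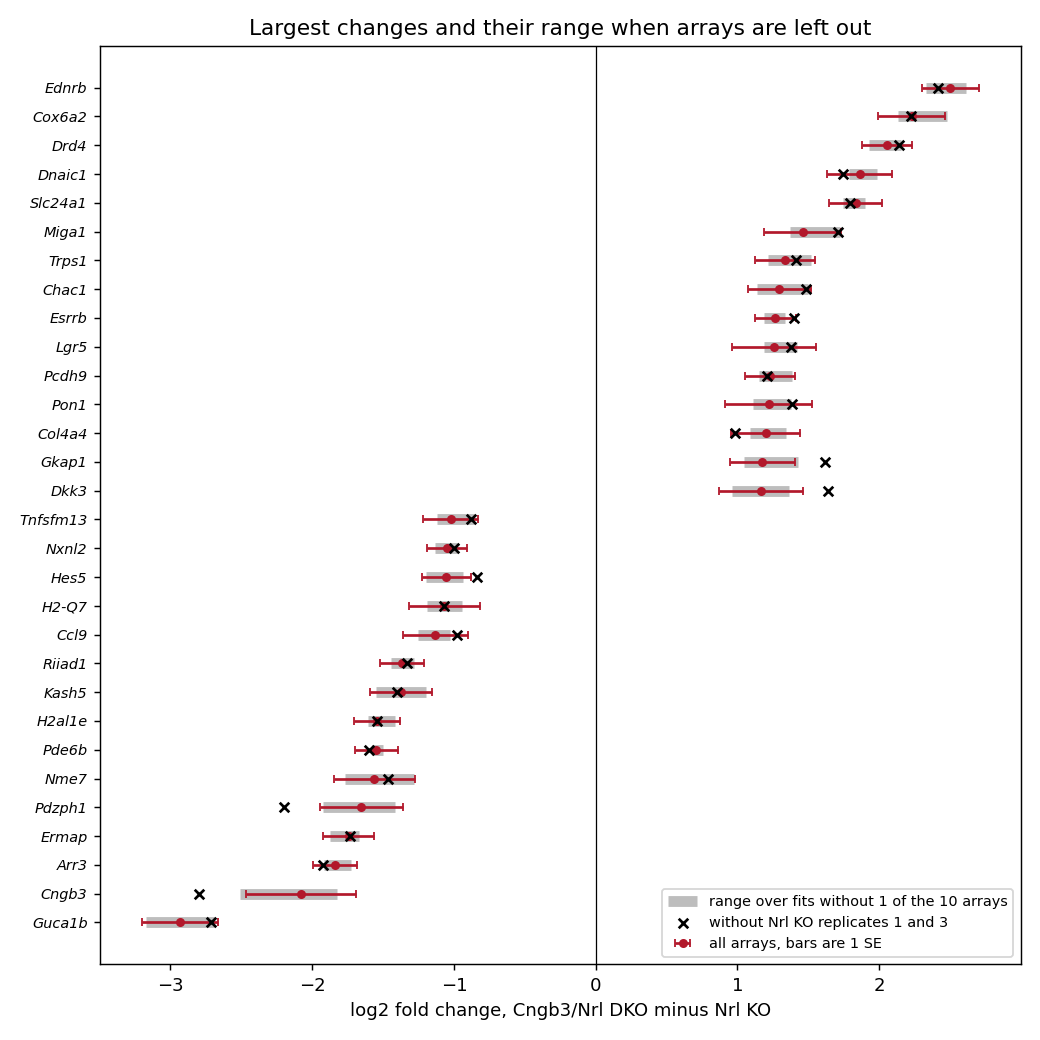
Change (log2, Cngb3/Nrl double knockout minus Nrl knockout) of the 15 most raised and 15 most lowered genes among called probes without overlap between groups, with 1 SE (red), the range over the 10 fits that each leave out 1 array (grey bars) and the value without Nrl knockout replicates 1 and 3 (crosses). Every gene keeps its direction in each setting drawn, and Cngb3, Pdzph1, Gkap1 and Dkk3 move furthest when the pair of arrays is left out.

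Agreement among probes was examined for the 2372 genes with at least 2 tested probes. Of these, 135 had a called probe. All probes were called in the same direction for 12 genes, 82 genes had some probes called and all of 1 sign, and 41 had another probe of the opposite sign. A call in both directions occurred for 0 genes. Probes were of 1 sign in 69.6% of the genes with a call and in 57.0% of those without, and among genes with exactly 2 probes in 84.5% of 71 and 63.25% of 1600. The call itself selects on the sign of 1 probe, so these shares are descriptions. Where the called probe was the brightest of its gene, all others had its sign in 43 of 51 cases, against 65 of 100 cases where it was not.

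The 4 genes with all probes higher were Ednrb, Dnaic1, Slc8a3 and Twistnb, a subunit gene of RNA polymerase I. Twistnb rose by 1.04 and 0.90 (adjusted p = 0.0108 and 0.0186), with 8.84 to 9.07 in the double knockout and 7.49 to 8.65 in the Nrl knockout on the first probe, and the second lost its call in 3 of 10 fits (up to 0.0577 without double knockout replicate 1). The 8 with all probes lower were Arr3, Hes5, Rgl3, Thnsl2, Tnc, Peli3, Ndufaf5 and Znrd1. Znrd1 is also a subunit gene of RNA polymerase I, and its 3 probes fell by 0.73, 0.62 and 0.57 (adjusted p = 0.0108, 0.0258 and 0.0176). The probe with -0.73 kept its call in all 10 fits, and the others lost theirs in 5 and 3 (up to 0.0798 and 0.0546, both without double knockout replicate 4). Thus these subunits of 1 polymerase moved in opposite directions.

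Rgl3, a Ral guanine nucleotide exchange factor, fell by 0.88 and 1.23 on probes detected on 1 and 4 of 5 double knockout arrays, and Tnc, the matrix protein tenascin C, by 0.84 and 0.88. Peli3, a ubiquitin ligase of innate immune signalling, fell by 0.56 on its brighter probe and by at least 1.45-fold on the other, which was detected on 0 of 5 double knockout and 3 of 5 Nrl knockout arrays. Ndufaf5, an assembly factor of complex I, fell by 0.58 and 0.71, and Thnsl2, a threonine synthase-like gene, by 0.98 (detected on 3 of 5 double knockout arrays) and 0.82. These 5 genes each had a probe whose call ended in 3 to 8 of 10 fits, with the highest adjusted p at 0.112 for Peli3 without double knockout replicate 4. The largest disagreement among genes with a large change was that of Nme7, a nucleoside diphosphate kinase family gene. One Nme7 probe was at least 1.69-fold lower (adjusted p = 0.0108), a second differed by -0.92 (adjusted p = 0.109), and the other 3 differed by 0.22 to 0.40. The called probe was detected on 5 of 5 Nrl knockout arrays and on 0 of 5 arrays of either double knockout. It thus passed the detection filter only through the group where it is high.

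**Figure D4:**
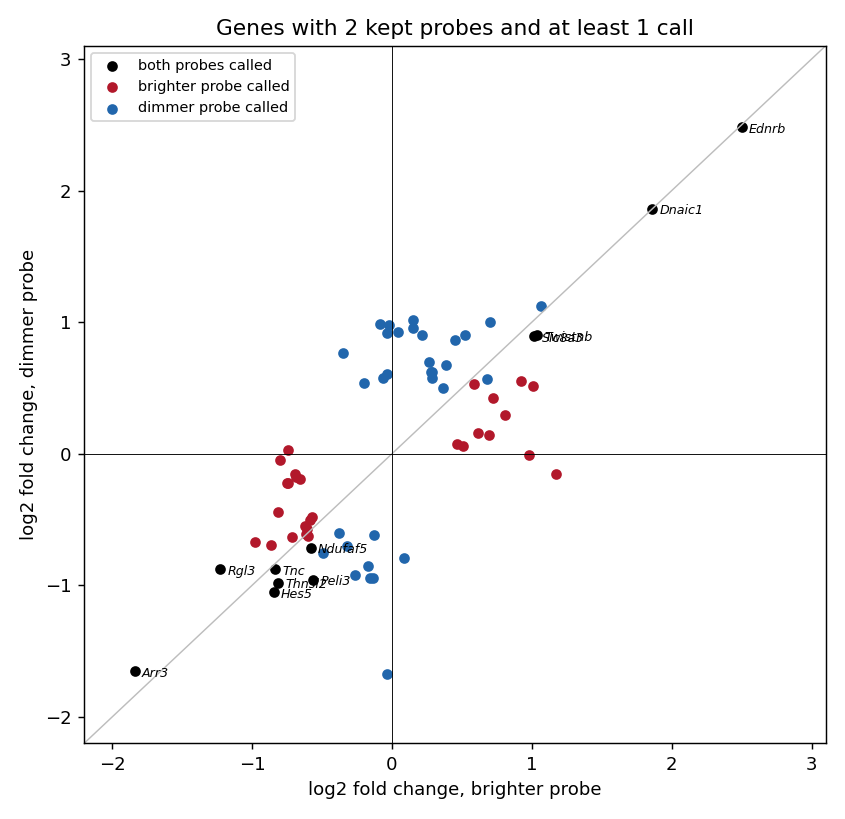
Change (log2, Cngb3/Nrl double knockout minus Nrl knockout) on the brighter and the dimmer probe of the 71 genes with 2 tested probes and at least 1 call, with the line of equality in grey. Genes with both probes called lie near the line, and several dimmer probes were called (blue) where the brighter one is near 0.

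The Cnga3/Nrl double knockout lacks the other subunit of the same channel, and the direct contrast between the mutants asks where they differ. Of 13077 probes, 53 were called (0.405%), 29 higher and 24 lower in the Cngb3/Nrl double knockout, and 23 of the 53 were also called against the Nrl knockout. The contrast shares its 5 Cngb3/Nrl arrays with the main comparison, so the overlap is no independent support. Of the 84 named probes called against the Nrl knockout, 19 of 16 genes differed between the mutants. Ednrb averaged 11.52 ± 0.245 in the Cngb3/Nrl double knockout, 9.76 ± 0.223 in the Cnga3/Nrl double knockout and 9.02 ± 0.477 in the Nrl knockout (SD, n = 5 each), a difference between the mutants of 1.76 (SE 0.201, adjusted p = 0.000374). Cox6a2 (1.70, adjusted p = 0.00263) and Slc24a1 (1.13, adjusted p = 0.0108) were likewise higher in the Cngb3/Nrl mutant. Dnaic1 averaged 10.28, 8.37 and 8.42 in the Cngb3/Nrl, Cnga3/Nrl and Nrl groups, and differed between the mutants by 1.91 (SE 0.213, adjusted p = 0.000363).

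Other genes differed in their order over the groups. Esrrb averaged 9.64, 8.04 and 8.37 in the Cngb3/Nrl, Cnga3/Nrl and Nrl groups, Trf 11.71, 10.24 and 10.92, Slc7a3 8.79, 7.54 and 7.85, and Pon1 9.11, 7.56 and 7.89. In each of these genes the Cnga3/Nrl mean lay below both others. The mutants differed by 1.60 (adjusted p = 6.51e-05), 1.47 (adjusted p = 0.00136), 1.25 (adjusted p = 0.000363) and 1.55 (adjusted p = 0.0371). Pde6b was lowest in the Cnga3/Nrl group, with means of 8.68, 7.41 and 10.22, and the mutants differed by 1.26 (SE 0.151, adjusted p = 0.000569). Arr3 had that order too on the probe called between the mutants, with 11.47, 10.86 and 13.12 (difference 0.61, adjusted p = 0.0445). Hes5 averaged 6.44, 7.50 and 7.49 (difference -1.07, adjusted p = 0.00896), lowest in the Cngb3/Nrl group. H2-Q7, Ermap and Nxnl2 were lower in the Cngb3/Nrl than in the Cnga3/Nrl mutant too, with differences of -1.36, -0.93 and -0.71 (adjusted p = 0.0246, 0.0353 and 0.0399), and so was 1 probe of Peli3 (adjusted p = 0.0443). Of these, Ermap was detected on 1 and the Peli3 probe on 0 of 5 Cngb3/Nrl arrays. For Drd4 the mutants averaged 11.97 and 12.06 (difference -0.095, SE 0.175, adjusted p = 0.842) and for Guca1b 6.06 and 5.63 (0.42, SE 0.269, adjusted p = 0.491). These p-values do not show that the mutants are alike in those genes.

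**Figure D5:**
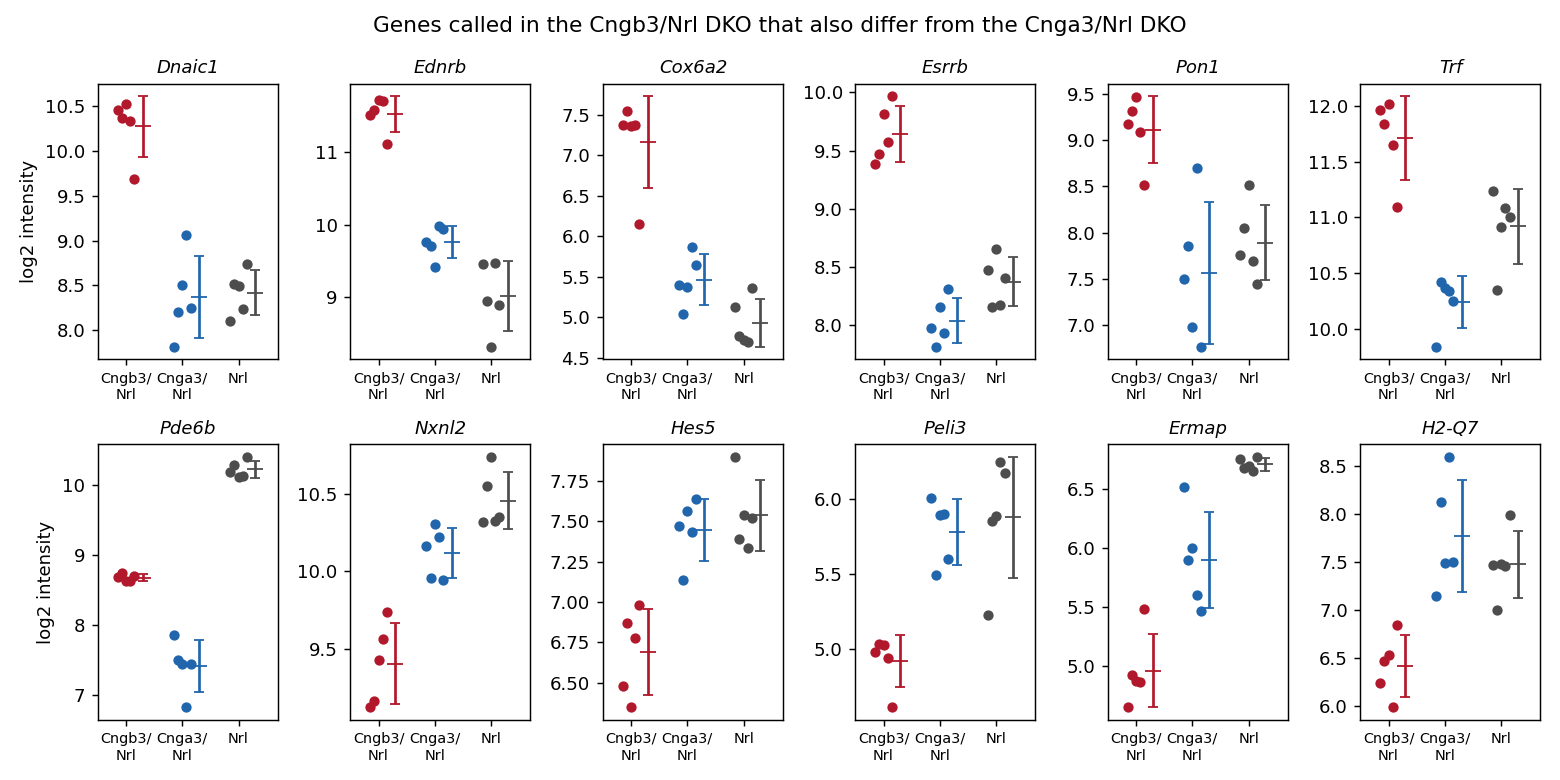
Log2 intensity on every array for 12 of the genes that changed in the Cngb3/Nrl double knockout (red) and also differed from the Cnga3/Nrl double knockout (blue), with the Nrl knockout (grey) at the right and mean and SD (n = 5 each) beside the points. Pde6b has its lowest mean in the Cnga3/Nrl group, whereas 6 genes such as Ednrb have their highest mean and 5 such as Hes5 their lowest in the Cngb3/Nrl group. Of those 6, Dnaic1, Esrrb, Pon1 and Trf also have their lowest mean in the Cnga3/Nrl group.

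Of the 351 calls, 105 remained in all 10 fits that left out 1 array, and of the 84 named called probes 39 did. The number still called the same way ranged from 128 without double knockout replicate 1 to 345 without Nrl knockout replicate 1. No called probe changed its sign in an alternative that measured it. Several alternatives refit the same values and group means, so the sign could not change there. Leaving out Nrl knockout replicates 1 and 3 together ended the calls of 12 of the 84 named probes, those of Ndufaf5 (both probes), 1 probe each of Peli3 and Tnc, and Sfrp1, Slc1a2, Rcvrn, Guca1a, Rax, Cox6b2, Phgdh and Txnip. Replicates are separate mice, so the errors include the spread between animals.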

How the data were processed

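RNA from both retinas of each mouse was labelled with biotin and hybridised to Illumina mouse beadchips, per the labels' protocols, and the submitters' processing notes name GenomeStudio. The authors deposited a table of non-normalized probe intensities with a detection p-value per probe and array, as its file headers show. The authors also deposited processed log2 values, which differed by at most 0.0239 from log2 quantile-normalized intensities.

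Intensities were background-corrected and quantile-normalized over all 15 arrays with neqc in limma 3.58.1 (R 4.3.3, offset 16). The filter required detection (p under 0.01) on 5 or more arrays. One limma model over the 3 groups (12 residual and 4.73 prior degrees of freedom) gave each contrast, with Benjamini-Hochberg adjustment over all 13077 kept probes, so every adjusted p printed is limma's. In simulated data with 200 changed probes of 13077, 75% were called at a log2 change of 1 and 100% at a change of 2, with 11 false calls. The simulated noise was independent, with 1 spread per probe for all arrays. It held no uneven arrays or effects shared across probes of an array, so these shares need not hold for the real arrays. The number of arrays limits the precision.

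The platform annotation gave 1 gene symbol for 23978 probes and none for 1719. Symbols were then updated by gene ID to those of RefSeq, which held the IDs of 23962 probes. Named were the targeted genes, the 15 largest non-overlapping called changes in each direction, up to 10 genes per direction with all probes called, up to 4 called members of each list (2 where none was called) and called genes among the 20 nearest to Cngb3 on each side. Members and lists were chosen with earlier results of these data known. Alternatives were other backgrounds, normalizations, filters, weights and fits, the authors' table, a replicate block and leaving out arrays.

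Same-numbered replicates of the groups had correlations of their deviations from the group means of -0.107, 0.0202, 0.0374, 0.28 and -0.02, so the numbers were not taken to pair the mice.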

Additional observations from a re-analysis of the deposited data

Results flagged for a closer look

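Among 230 groups of 5 values of the named probes, 17 held 1 array that stood apart from the other 4 by more than Dixon's limit (a gap over range of 0.71), where chance gives about 1 in 20. Cngb3/Nrl double knockout replicate 5 supplied 5 of them. It read 6.16 for Cox6a2, against 7.36 to 7.55 on the other double knockout arrays, and 9.69 for the brighter probe of the dynein gene Dnaic1, against 10.33 to 10.53. Both values were the lowest of the group and still lay above all Nrl knockout arrays. The same array read 4.78 for Nme7, 4.61 for Peli3 and 5.86 for the retinol-binding protein gene Rbp4, whose other double knockout values were 4.78 to 4.95. Its pigment epithelium sum was the lowest of the double knockout, 21806 against 28668 to 34701. So were its values of Ttr (12.98), Pon1 (8.52) and Trf (11.09). Cnga3/Nrl replicate 4 was the highest of its group for Ttr (13.40), Dnaic1 (9.06), Pon1 (8.70) and Cox6a2 (5.87). Nrl knockout replicate 5 had the lowest sum of its group (17650), but the highest Dnaic1 (8.74) and Cox6a2 (5.36). The part of pigment epithelium in the rises of Dnaic1, Cox6a2, Pon1 and Trf was not tested.

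Other double knockout arrays stood apart singly. Replicate 2 read 8.54 for Twistnb and 10.05 for Ndufaf5, both the lowest of the group, and 7.45 for Sfrp1, the highest. Replicate 3 read 8.71 for Nrarp and 8.17 for the proteasome assembly gene Psmg3, both the highest. Replicate 4 read 10.38 for Gkap1 and 10.08 for the homeobox gene Prox1, the highest, and 11.19 for Thy1, the lowest.

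In the Nrl knockout, replicate 1 read 6.17 for Miga1, against 4.75 to 5.0 on the other arrays. Replicate 2 read 8.08 for Slc7a3, replicate 3 read 10.73 for Znrd1, and replicate 5 read 8.90 for Prox1.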

How the results depend on the processing

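The counts depended on which arrays and fit were used, while no call changed sign in an alternative that measured it. The fit of probes detected on all arrays measured 237 of the 351. Fits that change only the filter, the groups fitted, the block or the variance trend keep the group means, so their signs were fixed. Against 351 calls, 188 higher and 163 lower, a fit of the compared groups alone gave 230 calls, 113 of them higher. Array weights gave 1054, with 632 higher and 422 lower. Leaving out Nrl knockout replicates 1 and 3 together gave 849, with 555 higher and 294 lower. Fits that left out 1 array gave 130 to 828 calls, with 66 to 463 higher and 64 to 365 lower, the fewest without Cngb3/Nrl double knockout replicate 1 and the most without Nrl knockout replicate 1. With the replicate number as a block 387 probes were called, 292 of them among the 351, although the numbers do not pair the mice. The remaining alternatives gave 252 (median centring) to 375 calls (no background correction). Median centring shifted the median of all probes by 0.0105. The cause was not tested for any of these differences. Of the 84 named calls, 63 held in the fit of the compared groups alone, 70 with no filter on dim probes, 73 with median centring, 75 with the block, 78 with the authors' table and 84 with array weights. Probes near background give only bounds.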

Other observations

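Gene families outside the lists were taken by gene symbol and counted after their values had been seen, so the counts are descriptions. Beside them stand the shares of all genes by brightest probe, 1.23% called higher and 1.28% lower. Without Nrl knockout replicates 1 and 3 these shares were 3.54% and 2.33%. Of 40 measured core and linker histone genes, 5 were called higher and 0 lower in the Cngb3/Nrl double knockout, and 6 higher and 0 lower without Nrl knockout replicates 1 and 3, with a median change of 0.17. The symbol match left out H2al1e, the histone H2A variant called lower by at least 2.14-fold, so histone genes did not all move 1 way. H4c8 rose by 1.10, H4c18 by 1.06, H2ac6 by 0.91 and H2aw by 0.65 (limma adjusted p = 0.0193, 0.036, 0.0183 and 0.0209), and H4c3 was at least 1.12-fold higher (adjusted p = 0.0212), with the bound set against the detection limit. In the Nrl knockout H4c3 was detected on 0 of 5 arrays, H4c18 on 1 and H2ac6 on 2, so their changes are partly against background. Their calls were lost in 2 to 8 of 10 fits with 1 array left out, up to 0.103 for H4c18 without double knockout replicate 4. Histone genes have near-identical copies whose signals a probe may share, so the single genes are uncertain.

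Of 18 measured vacuolar proton pump genes, Atp6v1a rose by 0.80 and Atp6v0b fell by 0.54 (adjusted p = 0.0295 and 0.0373, each lost in 8 of 10 fits, up to 0.077 without Nrl knockout replicate 2 and 0.0974 without double knockout replicate 2). Limma called 0 of 40 genes whose symbols begin with Eif, which are translation initiation factors and regulators such as Eif2ak1 and Eif4ebp1. Usp46, a ubiquitin protease, was the 1 called of 33 genes whose symbols begin with Usp (0.89, adjusted p = 0.0254, lost in 4 of 10 fits, up to 0.074 without double knockout replicate 2), detected on 3 of 5 Nrl knockout arrays. The Usp genes had 1 rise and 1 fall without Nrl knockout replicates 1 and 3. There, 29 genes matched by symbol as aminoacyl-tRNA synthetases had 2 rises in place of 0. These 29 also hold genes of other kinds, namely Ptprs, Cers2, Coprs and Irs2.

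Outside the probes that the naming rule covers, 11 list genes were called on a probe other than the brightest of the gene, 6 higher and 5 lower. Beyond those given above, the chloride channel gene Clcn3 rose by 1.15 (adjusted p = 0.0222) and the proteasome gene Psmd7 by 0.54 (adjusted p = 0.0259), and Kcnab1, a potassium channel beta subunit, fell by 0.67 (adjusted p = 0.00713) and the glutathione transferase gene Mgst3 by 0.60 (adjusted p = 0.0364). The Kcnab1 call remained in all 10 fits with 1 array left out, and those of Clcn3, Psmd7 and Mgst3 were lost in 3, 6 and 7 (up to 0.066 and 0.0746, without double knockout replicates 4 and 3, and 0.106 without replicate 4). The brighter Psmd7 probe went the other way (-0.20), and the other Kcnab1 probes differed by -0.18 and 0.15. Those of Clcn3 (0.27 and 0.41) and Mgst3 (-0.38) kept the sign.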
